A study of Mus musculus with 20 samples.

Results

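Ribosome biogenesis factors are the proteins that transcribe, modify, cut and fold ribosomal RNA (rRNA) and load ribosomal proteins onto it. Their transcripts were followed in mouse bone marrow-derived macrophages (BMDMs). Of 40 genes chosen by symbol, 38 had a mean of at least 3 CPM (a gene's count scaled by the library total) over the 20 libraries and were kept, out of 10640 genes at or above that level and 78409 genes listed. Polr1b (1.22 CPM) and Rrp9 (2.55 CPM) fell under the limit, and Noc4l (3.48 CPM) and Rrp12 (3.56 CPM) lay just above it. The 38 genes comprise 6 nucleolar scaffold and chaperone proteins, 1 RNA polymerase I subunit, 7 small nucleolar ribonucleoprotein (snoRNP) and rRNA modification proteins, 13 small subunit factors, 10 factors of 60S assembly and 1 coactivator.

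All macrophages came from wild-type female C57BL/6J mice, were used at day 7 of culture and were plated at 200000 cells per well. They received PBS or a fraction of bronchoalveolar lavage fluid from mice with ovalbumin-driven airway inflammation, separated by size exclusion into an extracellular vesicle fraction (EVFx) and a protein fraction (ProteinFx). The donor mice of the fluid were RNY1+/+ or RNY1-/-, so the genotype is that of the source of the fraction and not of the macrophage. The 5 groups of 4 libraries were thus PBS, RNY1+/+ EVFx, RNY1-/- EVFx, RNY1+/+ ProteinFx and RNY1-/- ProteinFx. RNY1-/- mice carry a CRISPR deletion of the gene for the Y RNA RNY1. Fractions were kept for 5 days at 4°C before use and were given at 3.5e7 particles per µL for EVFx and 0.75 µg of protein per µL for ProteinFx, in serum-free medium, so the fractions were not matched for dose. The length of the treatment was not given in the sources used here.

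As background, ribosomes are built in the nucleolus, where RNA polymerase I makes a long precursor rRNA. The small subunit processome folds and cuts its 5′ part into the precursor of the 40S subunit, while a separate set of factors builds the 60S subunit around the 3′ part, and snoRNPs methylate and pseudouridylate the RNA on the way. Many of these genes are classical targets of the transcription factor MYC, which binds the E-box CACGTG with its partner MAX, and their transcripts usually rise when cells prepare to grow.

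The E-box was therefore sought in RefSeq promoters (GRCm38.p6, from 250 bases before to 50 bases after the gene start, both strands, the motif being its own reverse complement). A promoter was found for 31 of the 38 genes, the others being Npm1, Tcof1, Fbl, Tbl3, Rrp12, Bop1 and Rrs1. The letters occurred in 9 of these 31 genes (29.03%), against 12.44% of the 7939 tested genes with a promoter and 8.09% of the 27025 genes in the table. The following windows of 30 bases hold the motif, in capitals, on the strand of the gene. The first 6 belong to genes that rose with RNY1+/+ EVFx and the last to the gene with the lowest adjusted p among those that fell with RNY1-/- EVFx against RNY1+/+ EVFx.
Tma16 (chr8:66486498-66486527, minus strand): tcccccggggccCACGTGtgttagggaaga
Pno1 (chr11:17211540-17211569, minus strand): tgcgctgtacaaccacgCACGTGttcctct
Wdr43 (chr17:71616220-71616249, plus strand): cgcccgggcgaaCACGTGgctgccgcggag
Ltv1 (chr10:13193092-13193121, minus strand): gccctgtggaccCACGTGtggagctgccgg
Utp4 (chr8:106893643-106893672, plus strand): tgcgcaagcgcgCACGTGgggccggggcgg
Mybbp1a (chr11:72441347-72441376, plus strand): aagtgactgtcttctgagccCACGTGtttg
Pes1 (chr11:3963965-3963994, plus strand): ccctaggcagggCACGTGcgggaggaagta
Nop2 and Utp20 were the other members with the motif. Counted from the RefSeq start, which can differ from the GENCODE gene start given with a gene's position, the motif began 15 to 40 bases downstream in 6 of these 7 windows and 2 bases downstream in Pes1. With RNY1+/+ EVFx, 6 of the 9 members with an E-box and 4 of the 22 without it rose against PBS, where 21.7% of all genes tested rose. Between RNY1+/+ ProteinFx and RNY1+/+ EVFx, 7 of the 9 and 17 of the 22 were lower with ProteinFx, and between RNY1-/- and RNY1+/+ EVFx 5 of the 9 and 10 of the 22 were lower with RNY1-/-, where 32.2% and 26.6% of all genes were lower. These counts are a description, and the members with and without the E-box were not tested against each other. A second motif, TCGCGA, was sought in the same promoters. It occurred in 3 of the 31 genes (9.68%), against 6.32% of the tested genes with a promoter and 2.86% of the genes in the table.

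Total counts per library ran from 2510005 to 8277366, with a median of 5456425, so that the lowest members rested on few molecules (as few as 5 counts of Nop16 in a library). RNA coded by the mitochondrial genome took 5.58% to 7.32% of counts with PBS and 3.80% to 4.99% with RNY1+/+ EVFx, against 5.41% to 6.14% with RNY1-/- EVFx, 4.75% to 5.32% with RNY1+/+ ProteinFx and 4.86% to 5.93% with RNY1-/- ProteinFx. The EVFx groups thus did not overlap in this share, and its part in the results was not tested. All 7 macrophage markers were detected in each group and summed to 8450 to 12848 CPM. In the RNY1-/- ProteinFx group, libraries 1 and 2 differed from libraries 3 and 4 by a chi-square per gene of 13.3 to 15.7, against 3.50 and 2.57 within those pairs, and PBS library 3 differed from the other PBS libraries by 16.8 to 34.8, so results that rest on these libraries are also given without them. Without PBS library 3, 15 members rose and 0 fell with RNY1+/+ EVFx, 13 and 7 with RNY1-/- EVFx, 8 and 11 with RNY1+/+ ProteinFx, and 2 and 13 with RNY1-/- ProteinFx, each against PBS. In the same fits the shares of all genes that rose and fell also grew, to 27.4% and 28.9%, 34.8% and 35.6%, 33.3% and 35.3%, and 25.1% and 27.7%. For other libraries left out singly, in the results below, the share of all genes was not counted. Changes in the members' counts then cannot be told from changes over all genes. The labels do not tell if the 4 libraries of a treatment were separate cultures or pools of fluid, so p-values measure only the spread between these libraries, which may be technical. In bulk RNA, fewer cells of a type and less RNA per cell cannot be told apart.

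The most abundant members were Npm1 and Ncl, histone and RNA chaperones of the nucleolus, at a mean of 217 CPM and 202 CPM over all libraries, before Pno1 at 106 CPM and Tma16 at 92.8 CPM. These are 3′-end tag counts, which do not scale with transcript length. The summed level of the 38 members was 1363 ± 98.3 CPM (SD, n = 4) with PBS, 1625 ± 58.2 with RNY1+/+ EVFx, 1423 ± 114 with RNY1-/- EVFx, 1179 ± 91.7 with RNY1+/+ ProteinFx and 1182 ± 19.3 with RNY1-/- ProteinFx. Every RNY1+/+ EVFx library, at 1570.2 CPM or more, lay above every PBS library, at 1445 CPM or less. Without Tma16 the same sums were 1350.4 ± 98.1, 1417 ± 52.3, 1244 ± 117, 1137 ± 89.7 and 1159 ± 16.8, and the ranges of PBS (1217 to 1432 CPM) and RNY1+/+ EVFx (1373 to 1484 CPM) overlapped. The group mean was highest with RNY1+/+ EVFx for 23 members, with PBS for 9, with RNY1-/- EVFx for 5, with RNY1+/+ ProteinFx for 1 and with RNY1-/- ProteinFx for 0, and it was lowest with RNY1-/- ProteinFx for 12.

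**Figure D1:**
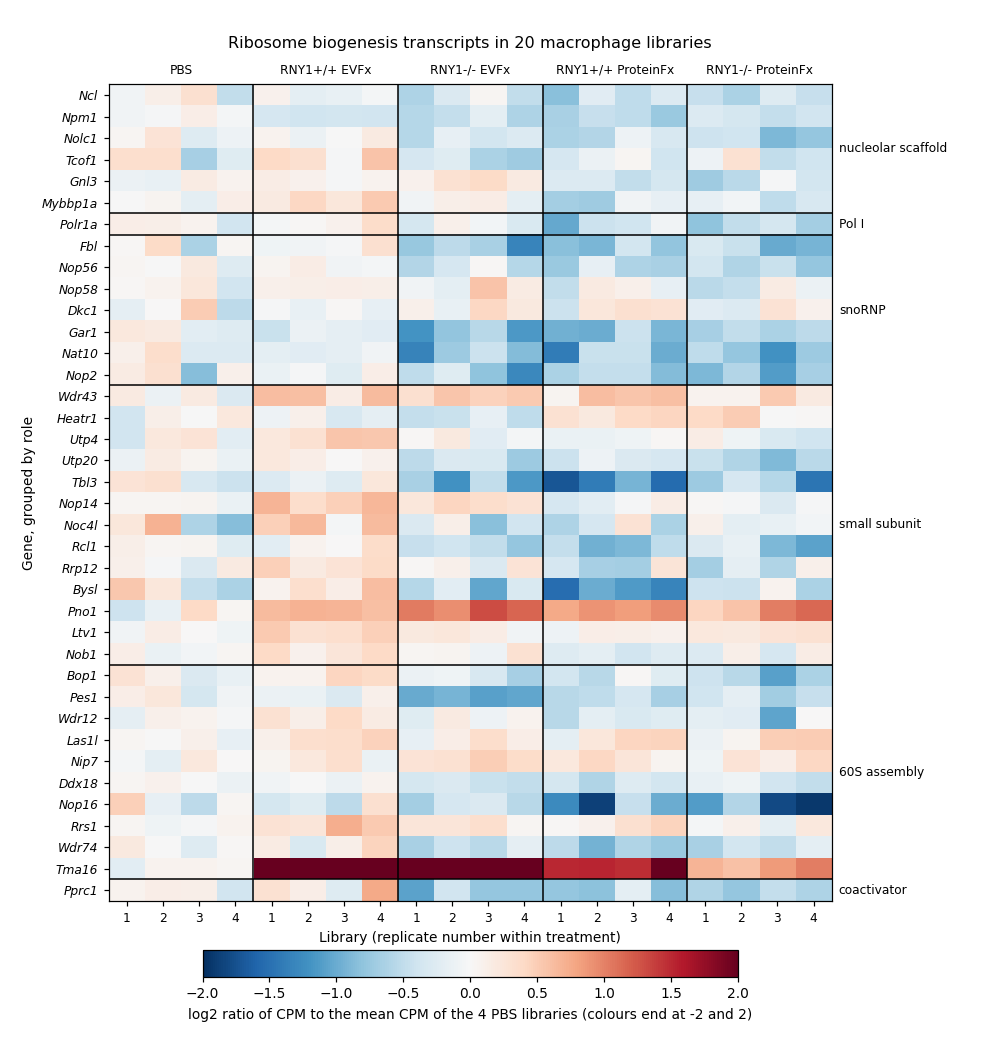
Log2 ratio of the CPM of each of the 38 genes (rows, grouped by role) in each of the 20 libraries (columns, grouped by treatment) to the mean of the 4 PBS libraries, with colours ending at -2 and 2. Tma16 is at or near the end of the scale in all 8 EVFx libraries and Pno1 is red in all 16 fraction-treated libraries, while the 28 values of the 7 snoRNP genes have a median of -0.07 with RNY1+/+ EVFx (19 below 0) and of -0.54, -0.48 and -0.53 with RNY1-/- EVFx, RNY1+/+ ProteinFx and RNY1-/- ProteinFx (22, 23 and 25 below 0).

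**Figure D2:**
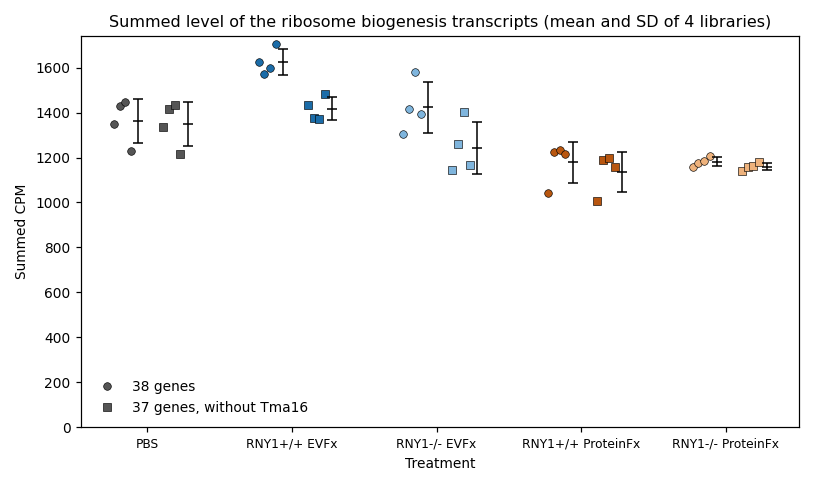
Summed CPM of the 38 genes (circles) and of the 37 genes without Tma16 (squares) in each library, with the mean and SD of 4 libraries, by treatment. With Tma16, the 4 RNY1+/+ EVFx libraries sit between 1570.2 and 1706 CPM, above the 4 PBS libraries; without it the 2 groups overlap.

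Fold changes below are from edgeR with TMM scaling, which sets the bulk of genes near no change, while CPM are relative to all counts. Scaling to total counts instead moved the median of all genes against PBS by -0.18 (log2) for RNY1+/+ EVFx, -0.24 for RNY1-/- EVFx, -0.17 for RNY1+/+ ProteinFx and -0.065 for RNY1-/- ProteinFx. It moved that median by 0.18 for RNY1-/- ProteinFx against EVFx and by 0.16 for the interaction. Changes are therefore relative to that median. A gene was said to rise or fall when its adjusted p was under 0.05.

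Tma16, whose product binds the precursor of the 60S subunit, had the largest fold change of all members in 3 of the 4 comparisons with PBS, the exception being RNY1-/- ProteinFx, where Nop16 moved further. The gene (ENSMUSG00000025591) lies at chr8:66473118-66486530 on the minus strand (GRCm38). Its level was 11.1, 13.4, 13.5 and 13.2 CPM in the 4 PBS libraries. It was 192, 192, 226 and 222 CPM with RNY1+/+ EVFx and 161, 154, 178 and 225 CPM with RNY1-/- EVFx. Every EVFx library was thus more than 10 times any PBS library, and the EVFx groups overlapped each other. With RNY1+/+ ProteinFx it was 36.6, 36.8, 35.4 and 56.6 CPM, and with RNY1-/- ProteinFx 20.5, 19.2, 23.1 and 26.1 CPM. The ProteinFx groups overlapped neither PBS nor EVFx nor each other.

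The rise of Tma16 was 18.3-fold with RNY1+/+ EVFx (log2 fold change 4.20 ± 0.12 SE, adjusted p = 3.04e-09) and 16.6-fold with RNY1-/- EVFx (4.05 ± 0.17, adjusted p = 2.25e-08). With RNY1+/+ ProteinFx it rose 3.65-fold (1.87 ± 0.18, adjusted p = 8.72e-06), and with RNY1-/- ProteinFx 1.80-fold (0.85 ± 0.16, adjusted p = 0.00327). These 4 comparisons share their PBS libraries. Between the EVFx groups the log2 difference for RNY1-/- over RNY1+/+ was -0.14, with a 95% interval of -0.38 to 0.10 (adjusted p = 0.36). Between the ProteinFx groups Tma16 was 2.02-fold lower with RNY1-/- (log2 fold change -1.01 ± 0.19, adjusted p = 0.00724). It was 4.97-fold lower with RNY1+/+ ProteinFx than with RNY1+/+ EVFx (adjusted p = 5.18e-09) and 9.28-fold lower with RNY1-/- ProteinFx than with RNY1-/- EVFx (adjusted p = 6.16e-08).

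The nearest annotated gene, Marchf1, a membrane-bound ubiquitin ligase, ends 1481 bases from the 3′ end of Tma16 on the opposite strand. Marchf1 had a mean of 36.2 CPM with PBS, 85.3 with RNY1+/+ EVFx, 99.8 with RNY1-/- EVFx, 121.9 with RNY1+/+ ProteinFx and 100.4 with RNY1-/- ProteinFx. Its order of groups thus differed from that of Tma16, with the highest mean under RNY1+/+ ProteinFx. Counting was strand-specific according to the study's methods, and the part of reads from Marchf1 in the Tma16 count was not tested. The other 3 annotated genes within 50 kb that are listed in the files, Gm15356, Gm32568 and Tktl2, had group means of 0.345 CPM or less.

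**Figure D3:**
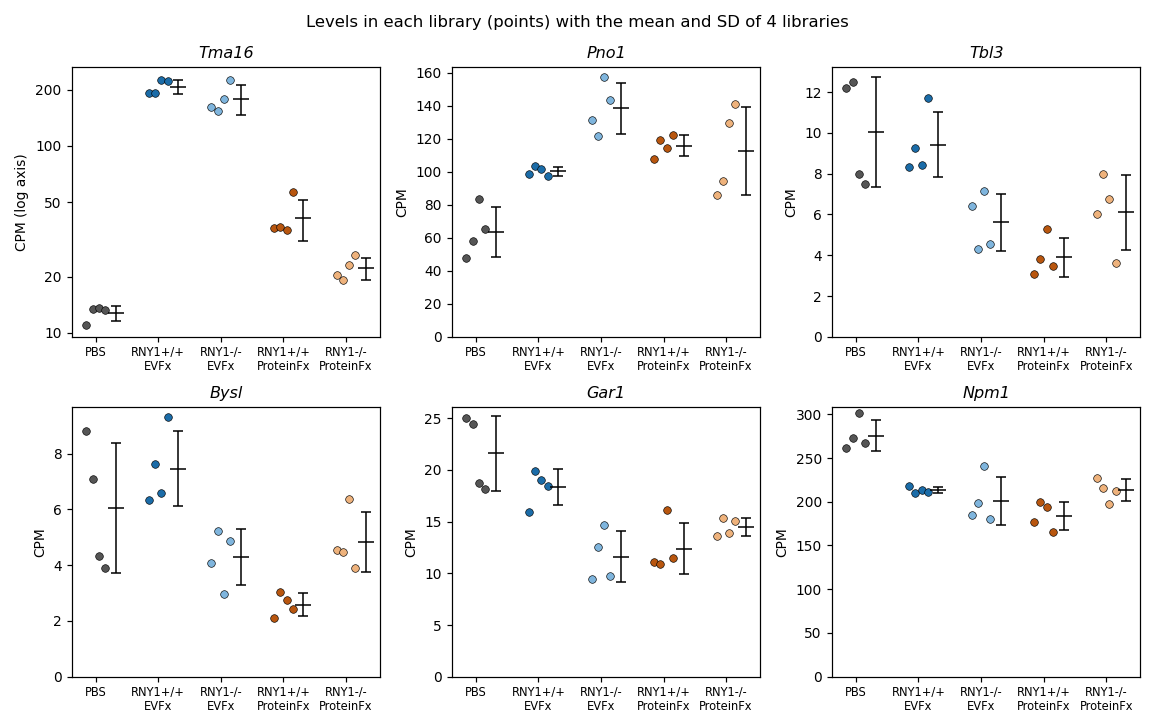
CPM of 6 genes in each library (points) with the mean and SD of 4 libraries beside them, by treatment; the Tma16 axis is logarithmic and the other axes start at 0. Tma16 forms 4 levels (PBS, RNY1-/- ProteinFx, RNY1+/+ ProteinFx and both EVFx groups), Pno1 is above all PBS libraries in all 16 treated libraries, and Tbl3, Bysl and Gar1 are lower in the RNY1-/- EVFx and ProteinFx groups than in most RNY1+/+ EVFx libraries.

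Against PBS, RNY1+/+ EVFx raised 12 of the 38 members and lowered 0, where 21.7% of the 10797 genes tested rose and 22.8% fell. The risers were chiefly assembly factors of the small subunit (7 of 13) and of the 60S subunit (4 of 10), with 1 of 6 nucleolar scaffold proteins and 0 of 7 snoRNP proteins. The median log2 fold change of the members was 0.30, against -0.03 for all genes, and 36 of 38 lay above 0. Under total-count scaling, where 15.4% of all genes rose and 32.2% fell, 7 members rose and 1 fell, Npm1 at -0.37 (adjusted p = 0.0045), and 27 lay above 0. With an unadjusted p under 0.05, 18 were higher and 1, Npm1, was lower, and DESeq2 called 12 higher and 0 lower.

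Among small subunit factors, Pno1, an RNA-binding partner of the endonuclease that makes the end of 18S rRNA, had the largest rise. Its level was 48.0, 57.8, 83.7 and 65.5 CPM with PBS and 98.4, 103, 102 and 97.1 CPM with RNY1+/+ EVFx. The groups did not overlap, and the rise was 1.78-fold (log2 fold change 0.83 ± 0.15, adjusted p = 0.00102). Nop14 (0.73 ± 0.11, adjusted p = 0.000255), Wdr43 (0.70 ± 0.15, adjusted p = 0.00296) and Utp4 (0.59 ± 0.16, adjusted p = 0.0121), all parts of the small subunit processome, rose as well. So did Ltv1, a chaperone of the late 40S precursor, Nob1, the endonuclease that Pno1 accompanies, and Rrp12, an export factor, by 0.60, 0.46 and 0.50. Rrp12, at the 3 CPM limit, lost its call without any 1 of the 8 libraries (adjusted p of 0.0558 to 0.118), and the other 11 calls held without each library in turn.

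Of the 60S factors, Rrs1, which helps to place the 5S rRNA, rose by 0.63 ± 0.13 (adjusted p = 0.0024), Las1l, an endonuclease of the internal spacer, by 0.50 ± 0.12 (adjusted p = 0.00679) and Wdr12, a partner of Pes1 and Bop1, by 0.43, beside Tma16. Mybbp1a, a nucleolar MYB-binding protein (chr11:72441355-72451768, plus strand, GRCm38), stood at 42.4, 44.0, 37.1 and 46.6 CPM with PBS and at 48.0, 56.4, 49.7 and 61.0 CPM with RNY1+/+ EVFx. Its groups did not overlap, and it rose 1.43-fold (0.51 ± 0.12, adjusted p = 0.00419).

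Other well-known members did not pass the test with RNY1+/+ EVFx. Polr1a, the largest subunit of RNA polymerase I, stood at 14.6, 14.4, 13.95 and 10.1 CPM with PBS and at 12.9, 13.5, 14.02 and 17.03 CPM with RNY1+/+ EVFx, overlapping groups with a log2 difference of 0.30 (95% interval -0.01 to 0.60). Nop58, a core protein of box C/D snoRNPs, stood at 42.3, 43.9, 48.7 and 32.2 CPM and at 44.6, 45.3, 46.1 and 45.5 CPM. Its log2 difference was 0.30 (adjusted p = 0.0704). Npm1 (chr11:33152287-33163206, minus strand, GRCm38) stood at 262, 272, 301 and 267 CPM with PBS and at 218, 210.2, 214 and 212 CPM with RNY1+/+ EVFx. The groups did not overlap, but with TMM scaling the log2 fold change was -0.19 ± 0.09 (adjusted p = 0.095). All 20 Npm1 counts carried fractions of reads shared with other loci, as did counts in at least 1 library for 23 members, so that these levels are uncertain by what near-identical copies take.

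**Figure D4:**
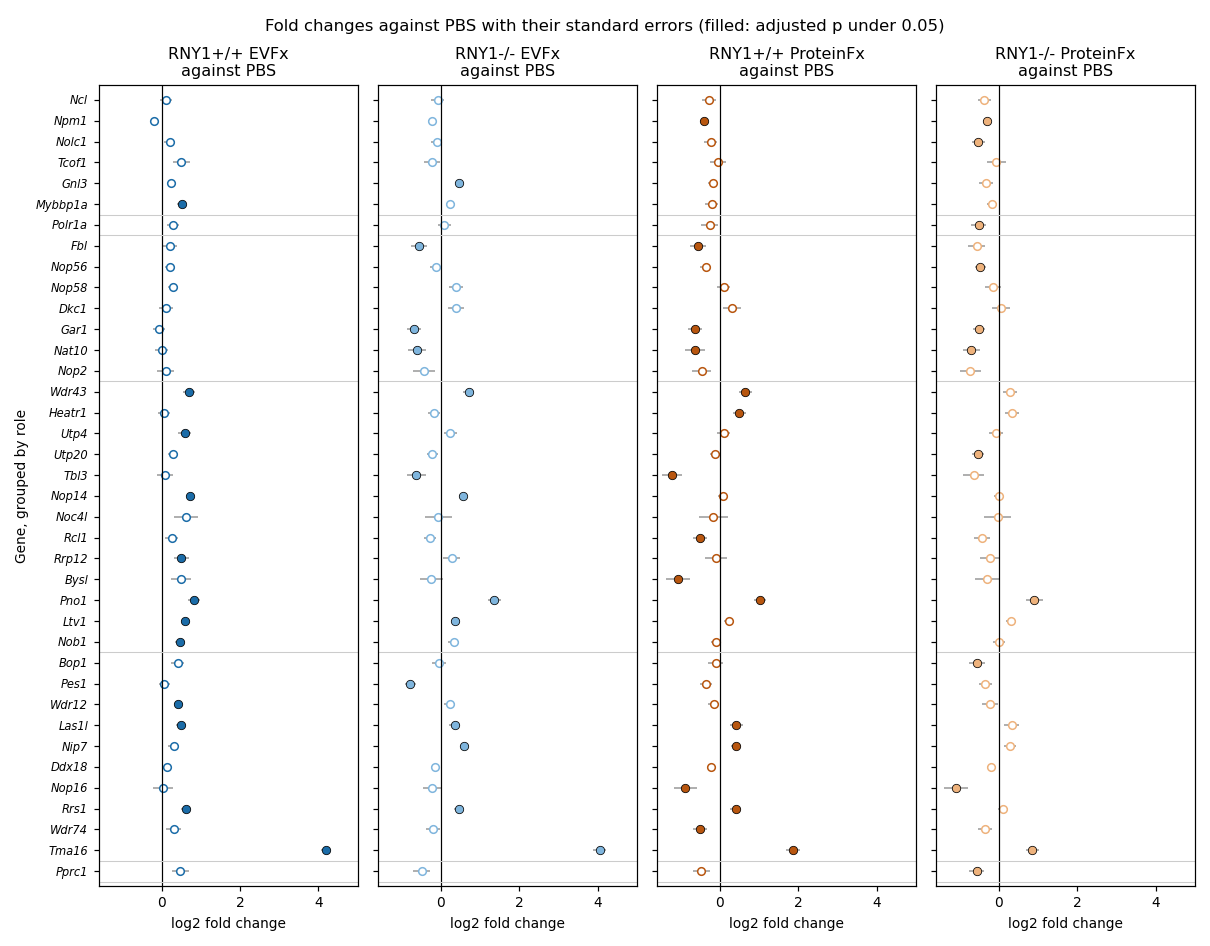
Log2 fold change (horizontal axis) with its standard error for the 38 genes (vertical axis, grouped by role) in the 4 treatments against PBS; filled points have an adjusted p under 0.05. With RNY1+/+ EVFx 36 of 38 points lie right of 0, against 17, 12 and 10 with RNY1-/- EVFx, RNY1+/+ ProteinFx and RNY1-/- ProteinFx.

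RNY1-/- EVFx changed members in both directions against PBS: 9 rose and 5 fell, where 27.6% of 10729 genes rose and 30.7% fell. The median of the members was -0.07, against -0.03 for all genes. The members that rose were Tma16, Pno1, Wdr43, Nop14, Ltv1, Gnl3, Las1l, Nip7 and Rrs1, and those that fell were Pes1, Tbl3 and the snoRNP or modification proteins Gar1, Fbl and Nat10. Under total-count scaling the split was 5 higher and 11 lower, against 18% and 42.3% of all genes. With trends in GC content and transcript length removed the median was 0.04, and 12 members rose and 3 fell. Of these, 7 and 1 were among the members named above, and 26.9% of all genes rose and 30.7% fell. The 5 that fell became 2 without PBS library 1, PBS library 2, RNY1-/- EVFx library 1 or RNY1-/- EVFx library 4, while 10 of the 14 calls, those of Pes1 and Gar1 included, held when each library was left out in turn.

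Pno1 was at 131, 122, 158 and 143 CPM with RNY1-/- EVFx, above every PBS library, a 2.57-fold rise (log2 fold change 1.36 ± 0.16, adjusted p = 4.21e-05). Pes1, which with Bop1 and Wdr12 forms a complex needed for 60S assembly (chr11:3963975-3980004, plus strand, GRCm38), was at 34.0, 36.0, 24.1 and 29.5 CPM with PBS and at 15.4, 16.3, 14.6 and 15.1 CPM with RNY1-/- EVFx. These groups did not overlap, and the level was 1.71-fold lower (-0.77 ± 0.14, adjusted p = 0.000854). Gar1, a core protein of the H/ACA snoRNPs that guide pseudouridylation (chr3:129824912-129831396, minus strand, GRCm38), was at 25.0, 24.5, 18.8 and 18.2 CPM with PBS and at 9.46, 12.5, 14.7 and 9.76 CPM with RNY1-/- EVFx. It was 1.59-fold lower (-0.67 ± 0.18, adjusted p = 0.00677). With GC and length trends removed the difference of Gar1 was -0.12 (adjusted p = 0.523).

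RNY1+/+ ProteinFx raised 7 members and lowered 9 against PBS, where 25.9% of 10835 genes rose and 29.3% fell. The member median was -0.17, against -0.03 for all genes. The risers were Tma16, Pno1, Wdr43, Heatr1, Las1l, Nip7 and Rrs1, and the members that fell were Npm1, Fbl, Gar1, Nat10, Tbl3, Rcl1, Bysl, Nop16 and Wdr74. Under total-count scaling 3 rose and 15 fell, against 18.3% and 37.7% of all genes. With trends in GC and length removed, 5 rose and 9 fell, against 22.7% and 29.7% of all genes. Of these, 3 and 4 were among the members named above. Without PBS library 2 or RNY1+/+ ProteinFx library 4 there were 4 risers, and the 9 that fell became 4 without PBS library 1 and 5 without either of those libraries; 7 of the 16 calls, those of Tma16, Pno1, Wdr43, Npm1, Gar1, Tbl3 and Bysl, held when each library was left out in turn.

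Pno1 was at 107, 119, 114 and 122 CPM with RNY1+/+ ProteinFx, a 2.05-fold rise (log2 fold change 1.03 ± 0.15, adjusted p = 0.000195). The 2 members that fell by more than a log2 fold change of 1, as 12.4% of all genes did, act in the small subunit. Tbl3, a processome protein (chr17:24697949-24707660, minus strand, GRCm38), was at 12.2, 12.5, 8.01 and 7.47 CPM with PBS and at 3.06, 3.80, 5.28 and 3.47 CPM with RNY1+/+ ProteinFx, a 2.33-fold lower level without overlap (-1.22 ± 0.25, adjusted p = 0.00184). Bysl, a late 40S assembly factor (chr17:47599331-47611492, minus strand, GRCm38), was at 8.81, 7.11, 4.35 and 3.91 CPM and at 2.11, 3.04, 2.76 and 2.43 CPM, 2.098-fold lower (-1.07 ± 0.30, adjusted p = 0.0115). Both rested on few molecules, with as few as 15 counts of Tbl3 and 11 of Bysl in a library. With trends in GC and length removed, 0 members passed the test and fell by more than a log2 fold change of 1.

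Npm1, at 177, 199.6, 194 and 165 CPM with RNY1+/+ ProteinFx, was 1.33-fold lower than with PBS (-0.42 ± 0.10, adjusted p = 0.00429), and the groups did not overlap. Gar1, at 11.1, 10.9, 16.1 and 11.45 CPM, was 1.56-fold lower (-0.64 ± 0.18, adjusted p = 0.0095) and also did not overlap PBS. With GC and length trends removed, Npm1 was at -0.78 (adjusted p = 5.79e-06) and Gar1 at -0.06 (adjusted p = 0.765). Polr1a was at 6.51, 9.88, 10.1 and 12.7 CPM and Nop58 at 29.9, 47.3, 45.0 and 37.3 CPM, and neither passed the test.

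RNY1-/- ProteinFx raised 2 members, Tma16 and Pno1, and lowered 10 against PBS, where 16.7% of 10855 genes rose and 19% fell. The member median was -0.27, against -0.03 for all genes, and 28 of 38 lay below 0. The 10 were Npm1, Nolc1, Polr1a, Nop56, Gar1, Nat10, Utp20, Bop1, Nop16 and Pprc1. This count was the least stable: it was 4 without RNY1-/- ProteinFx libraries 1 and 2 (19.8% of all genes fell), 1 without libraries 3 and 4 (5.99%), 1 without PBS library 1, PBS library 2 or RNY1-/- ProteinFx library 4, 2 without RNY1-/- ProteinFx library 2 or 3, and 5 without RNY1-/- ProteinFx library 1. For these single libraries the share of all genes was not counted, so a change in power over all genes cannot be told apart. The calls of Tma16 and Pno1 held when each library was left out in turn. With trends in GC and length removed, 3 members rose and 11 fell, against 16.7% and 20.7% of all genes. Of these, 2 and 6 were among the members named above.

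Pno1 was at 86.1, 94.1, 129 and 141 CPM with RNY1-/- ProteinFx, above every PBS library but with libraries 3 and 4 higher than libraries 1 and 2, a 1.86-fold rise (0.90 ± 0.22, adjusted p = 0.0106); without libraries 3 and 4 it was 0.53 and did not pass. Nop16, a 60S assembly factor (chr13:54584185-54590090, minus strand, GRCm38), was at 9.63, 6.18, 4.80 and 7.12 CPM with PBS and at 3.21, 4.62, 1.99 and 1.82 CPM with RNY1-/- ProteinFx. It was 2.13-fold lower (-1.09 ± 0.32, adjusted p = 0.0225), and -0.78 without libraries 3 and 4, where it did not pass. The call was also lost without PBS library 1 (-0.90) or 4, or RNY1-/- ProteinFx library 3 or 4 (adjusted p of 0.0509 to 0.0675). With RNY1+/+ ProteinFx it was at 2.87, 1.90, 5.03 and 3.47 CPM, overlapping PBS.

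The source genotype was compared within each fraction to ask whether RNY1 in the donor mice altered what the macrophages expressed. The study's methods give GemPharmatech as the source of RNY1-/- mice and JAX for all other mice. They do not say whether the RNY1+/+ donors were littermates, so colony and genotype cannot be told apart here. Within EVFx, RNY1-/- gave 3 members a higher and 19 a lower level than RNY1+/+, where 25.5% of 10321 genes were higher and 26.6% lower. None of the 22 differed by more than a log2 fold change of 1, as 2.35% of all genes did. The members had a median of -0.27, against -0.0012 for all genes, and 32 of 38 lay below 0. By role, 4 of 6 nucleolar scaffold proteins (Nolc1, Tcof1 and Mybbp1a lower, Gnl3 higher), 5 of 7 snoRNP proteins, 7 of 13 small subunit factors (Pno1 higher, the rest lower), 5 of 10 factors of 60S assembly (Nip7 higher, the rest lower) and the coactivator Pprc1 (lower) passed the test. The count of 19 was 12 without RNY1+/+ EVFx library 4, and the 3 higher became 1 without that library or RNY1-/- EVFx library 3 or 4; 12 of the 22 calls held when each library was left out in turn.

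Pprc1, a coactivator of the PGC-1 family that is induced by serum (chr19:46044886-46072915, plus strand, GRCm38), showed the largest of these differences. It was at 8.92, 7.88, 6.01 and 12.2 CPM with RNY1+/+ EVFx and at 3.41, 5.51, 4.19 and 4.21 CPM with RNY1-/- EVFx. The level was 1.97-fold lower without overlap (log2 fold change -0.97 ± 0.23, adjusted p = 0.00364), and neither group passed the test against PBS, which stood at 7.58, 7.88, 7.78 and 5.52 CPM. Pes1, at 28.4, 28.3, 25.3 and 33.3 CPM with RNY1+/+ EVFx, was 1.79-fold lower with RNY1-/- (-0.84 ± 0.11, adjusted p = 0.000203). Fbl, the rRNA 2′-O-methyltransferase of the box C/D snoRNPs, was also lower (-0.76 ± 0.14, adjusted p = 0.000932).

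Bysl, at 6.33, 7.63, 6.61 and 9.30 CPM with RNY1+/+ EVFx and 4.07, 5.21, 2.96 and 4.88 CPM with RNY1-/- EVFx, was 1.64-fold lower (-0.71 ± 0.20, adjusted p = 0.00917). Tbl3 went from 8.32, 9.26, 8.41 and 11.7 CPM to 6.44, 4.32, 7.14 and 4.54 CPM (-0.71 ± 0.19, adjusted p = 0.00765), and Gar1 from 15.9, 19.9, 19.02 and 18.5 CPM to the values given above (-0.61 ± 0.14, adjusted p = 0.00335). These groups did not overlap for any of the 3 genes. Pno1 differed the other way, 1.45-fold higher with RNY1-/- (0.54 ± 0.09, adjusted p = 0.000492), every RNY1-/- library being above every RNY1+/+ library.

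GC content moved with this comparison. Across the 10019 genes with a known GC content, Spearman's rho between the log2 fold change and GC was -0.654, and it was -0.708 over the 38 members, all from the same 8 libraries; the members had a median GC content of 50.5% against 48.6%. With trends in GC and length removed, 14 members were lower and 1 higher, the median stayed at -0.25, and 7 of the 14 were among the 19. Pes1 stayed lower (-0.70, adjusted p = 0.000282), as did Pprc1 (-0.62, adjusted p = 0.0248), and Pno1 stayed higher (0.31, adjusted p = 0.00623). Gar1 (-0.15), Tbl3 (-0.37) and Bysl (-0.39) no longer passed, and Mybbp1a came to 0.01. The lower median of the members was thus about as large with and without that correction, while which members passed depended on it. The trend was not confined to this comparison. Over all genes, rho against PBS was -0.424 for RNY1-/- EVFx, -0.457 for RNY1+/+ ProteinFx, -0.495 for RNY1-/- ProteinFx and -0.093 for RNY1+/+ EVFx. Between ProteinFx and EVFx it was -0.493 for RNY1+/+ and 0.065 for RNY1-/-, and between the ProteinFx genotypes 0.156.

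**Figure D5:**
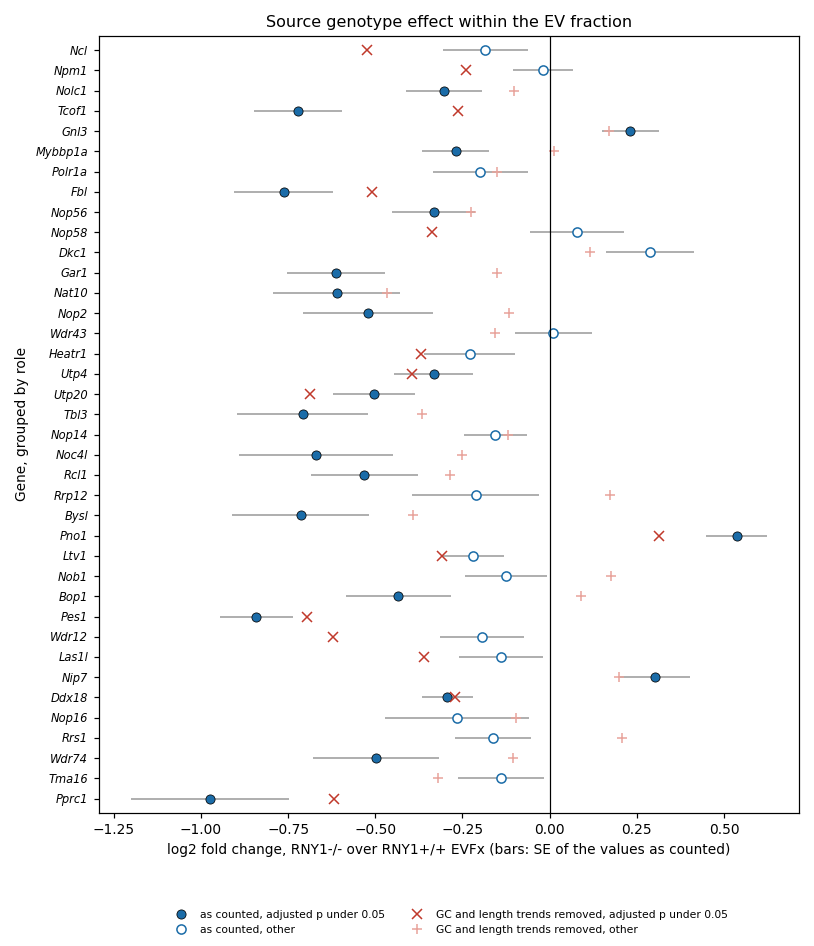
Log2 fold change of RNY1-/- over RNY1+/+ EVFx (horizontal axis) for the 38 genes (vertical axis, grouped by role), as counted (circles, with SE; filled where adjusted p is under 0.05) and with trends in GC content and transcript length removed (crosses). Left of 0 lie 32 of 38 circles and 29 of 38 crosses, and Pno1, Gnl3 and Nip7 are the 3 filled circles to the right.

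Within ProteinFx, 37 members could be tested, Rrp12 being too low. The genotypes differed for 1 of them, Tma16, which was lower with RNY1-/- as given above, where 2.20% of 10471 genes were higher and 3.37% lower. Beside the 0 higher, 2 members (Bysl and Tbl3) were higher and 4 (Tma16, Utp20, Bop1 and Wdr43) lower at an unadjusted p under 0.05, and DESeq2 called 0 higher and 1 lower. Bysl was at 4.53, 4.48, 6.37 and 3.89 CPM with RNY1-/- ProteinFx, above every RNY1+/+ ProteinFx library, but its difference of 0.78 ± 0.25 did not pass (adjusted p = 0.095). Without RNY1-/- ProteinFx libraries 3 and 4, 1 member was higher and 5 lower, where 13% of all genes were higher and 14.7% lower. The Tma16 call held when each library was left out in turn.

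The genotype effect was compared between fractions as an interaction, with positive values where RNY1-/- over RNY1+/+ was higher in ProteinFx than in EVFx. It passed for 9 members, 7 positive and 2 negative, where 16.8% of 10445 genes were positive and 16.2% negative. The positive members were Bysl (1.48 ± 0.31, adjusted p = 0.00424), Tbl3 (1.30 ± 0.33, adjusted p = 0.00856), Pprc1 (0.88 ± 0.33, adjusted p = 0.0461), Pes1 (0.87 ± 0.16, adjusted p = 0.00271), Fbl (0.77), Gar1 (0.76) and Tcof1 (0.72). Tma16 (-0.89 ± 0.24, adjusted p = 0.012) and Pno1 (-0.67 ± 0.20, adjusted p = 0.0182) were negative. Under total-count scaling 12 were positive and 2 negative (24.7% and 8.88% of all genes). Spearman's rho between the interaction and GC content was 0.585 over all genes with a known GC content and 0.577 over the members. With trends in GC and length removed, 6 members were positive and 1 negative (10.8% and 10.3% of all genes). Of these, 3 and 1 were among the members named above. Without RNY1-/- ProteinFx libraries 1 and 2 the counts were 2 and 0 (1.18% and 2.18%), and without libraries 3 and 4 they were 8 and 7 (27.6% and 26.7%). The 2 negative calls became 1 without RNY1-/- ProteinFx library 2, when Pno1 was at -0.56 (adjusted p = 0.0515), and 4 without library 3. Tcof1 lost its call without library 2 (0.56, adjusted p = 0.053) and Pprc1 lost its call without any 1 of 12 of the 16 libraries.

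Comparing the fractions from RNY1+/+ mice directly gave the broadest difference. Of the 38 members, 30 were lower and 2 higher with RNY1+/+ ProteinFx than with RNY1+/+ EVFx, where 32.2% of 10444 genes were lower and 31.1% higher. The member median was -0.55, against -0.02 for all genes, and 34 of 38 lay below 0. All 6 nucleolar scaffold proteins, Polr1a, Pprc1 and all but Nop58 and Dkc1 of the 7 snoRNP proteins were lower, and the 2 higher members were Heatr1 (0.45 ± 0.13, adjusted p = 0.00619) and Pno1 (0.21 ± 0.08, adjusted p = 0.0278). With trends in GC and length removed, 22 were lower, 21 of them among the 30, and 0 higher, with a median of -0.45. Total-count scaling left 30 lower and 2 higher, and 26 of the 32 calls held when each library was left out in turn; the 2 higher became 1 without RNY1+/+ EVFx library 1, 2 or 4 or RNY1+/+ ProteinFx library 2 or 4.

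After Tma16, the largest differences between these fractions were again Bysl, 2.94-fold lower with ProteinFx (-1.55 ± 0.21, adjusted p = 1.94e-05), and Tbl3, 2.46-fold lower (-1.30 ± 0.20, adjusted p = 6e-05). Mybbp1a, at 26.6, 25.9, 40.3 and 38.0 CPM with RNY1+/+ ProteinFx, lay below every RNY1+/+ EVFx library and was 1.64-fold lower (-0.72 ± 0.14, adjusted p = 0.000416). Polr1a was 1.46-fold lower (-0.55 ± 0.18, adjusted p = 0.0144), and -0.38 (adjusted p = 0.0606) without RNY1+/+ ProteinFx library 1. The dose, protein load and content of the fractions differ, and these cannot be told apart here.

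Between the fractions from RNY1-/- mice, 10 members were lower and 2 higher with ProteinFx, where 14.6% of 10418 genes were lower and 14.6% higher. The median was -0.31, against 0.01 for all genes. The lower members were Tma16, Gnl3, Nop14, Polr1a, Mybbp1a, Nolc1, Wdr43, Bop1, Nop16 and Rrs1, and the higher ones Pes1 (0.43 ± 0.12, adjusted p = 0.0215) and Heatr1 (0.50 ± 0.15, adjusted p = 0.0225). Gnl3, a nucleolar GTPase known as nucleostemin, was lower as well (-0.82 ± 0.15, adjusted p = 0.00151). Under total-count scaling 3 were lower and 2 higher, against 9.27% and 24.1% of all genes. The 10 lower became 4 without RNY1-/- EVFx library 2 or 3 or RNY1-/- ProteinFx library 1 and 6 without RNY1-/- EVFx library 4, and 3 of the 12 calls, those of Tma16, Gnl3 and Nop14, held when each library was left out in turn. The 2 higher became 0 without RNY1-/- EVFx library 1 or RNY1-/- ProteinFx library 2 and 1 without RNY1-/- EVFx library 2, 3 or 4 or RNY1-/- ProteinFx library 1.

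A further 131 ribosome biogenesis factors were counted beside the members. With RNY1+/+ EVFx, 35 of the 127 tested rose and 2 fell against PBS, where 21.7% of all genes rose and 22.8% fell. The median of these factors was 0.20. At an unadjusted p under 0.05, 45 were higher and 6 lower, and DESeq2 called 34 higher and 3 lower. By role, 14 of 40 small subunit factors and 15 of 42 factors of 60S assembly and export rose and 0 fell, while 1 of 18 snoRNP and modification factors rose and 1 fell. The largest rises were of Riok3, a kinase of the late 40S precursor (1.099 ± 0.10, adjusted p = 4.32e-06), Tsr3, an 18S rRNA-modifying enzyme (1.06 ± 0.24, adjusted p = 0.0038), and the processome protein Utp11 (1.01 ± 0.09, adjusted p = 7.13e-06). With RNY1-/- EVFx, 40 of 125 rose and 17 fell, where 27.6% of all genes rose and 30.7% fell. The largest changes were falls of Ubtf, the RNA polymerase I transcription factor UBF (-1.52 ± 0.17, adjusted p = 3.01e-05), Bud23, an 18S rRNA methyltransferase (-1.29 ± 0.23, adjusted p = 0.000741), and the polymerase subunit Polr1g (-1.19 ± 0.22, adjusted p = 0.000807).

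With RNY1+/+ ProteinFx, 23 of 124 of these other factors rose and 21 fell, against 25.9% and 29.3% of all genes. With RNY1-/- ProteinFx 11 of 126 rose and 13 fell, against 16.7% and 19% of all genes. Between the EVFx groups 25 of 125 were higher and 34 lower with RNY1-/-, against 25.5% and 26.6% of all genes. The median of these factors was -0.12, and Rrp7a, Pwp2 and Bud23 were lower, at log2 differences of -1.10, -1.02 and -1.004. Between the ProteinFx groups 0 of 121 were higher and 0 lower, against 2.20% and 3.37% of all genes. At an unadjusted p under 0.05, 3 of the 121 were higher and 4 lower, and DESeq2 called 0 and 0. With RNY1+/+ ProteinFx against RNY1+/+ EVFx 46 of 123 were lower and 18 higher, against 32.2% and 31.1% of all genes. The median of these factors was -0.20. The largest differences were Pwp2 (-1.43), Ddx49 (-1.38) and Eif6, which keeps 60S subunits from joining early (-1.25). With RNY1-/- ProteinFx against RNY1-/- EVFx 18 of 124 were lower and 3 higher, against 14.6% and 14.6% of all genes. The interaction passed for 34 of 123, 19 of them positive, where 16.8% of all genes were positive and 16.2% negative.

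Myc itself did not pass the test with RNY1+/+ EVFx. Its mean was 31.3 ± 10.4 CPM (SD, n = 4) with PBS and 32.2 ± 3.83 CPM with RNY1+/+ EVFx, a log2 difference of 0.23 ± 0.20 (adjusted p = 0.378). It stood at 42.4 ± 9.35 CPM with RNY1-/- EVFx (0.68 ± 0.21 against PBS, adjusted p = 0.0181, and 0.45 ± 0.14 against RNY1+/+ EVFx, adjusted p = 0.0151). With RNY1+/+ ProteinFx it was at 20.0 ± 3.34 CPM, below RNY1+/+ EVFx (-0.70, adjusted p = 0.00026), and with RNY1-/- ProteinFx at 16.7 ± 4.72 CPM. The MAX partners that repress E-box genes moved in opposite directions. With RNY1+/+ EVFx, Mxd4 (log2 fold change -3.39, adjusted p = 2.72e-07), Mxi1 (-1.01, adjusted p = 0.00145) and Mnt (-0.36, adjusted p = 0.0318) fell. Mxd1 rose (1.67, adjusted p = 1.66e-05). Against PBS, Mxd4 also fell and Mxd1 rose with RNY1-/- EVFx (-3.78 and 1.66), RNY1+/+ ProteinFx (-2.76 and 2.37) and RNY1-/- ProteinFx (-1.27 and 1.15). Mxi1 also fell with RNY1-/- EVFx (-1.08) and RNY1+/+ ProteinFx (-1.07) but did not pass with RNY1-/- ProteinFx. Mnt passed with none of these. The part of Myc and its partners in the members' levels was not tested.

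Cell division genes fell against PBS in every treatment, including RNY1+/+ EVFx, with which assembly factors rose. Of 18 such genes 16 were tested with RNY1+/+ EVFx against PBS, and 15 fell and 0 rose, with a median of -1.30. Of all genes, 22.8% fell and 21.7% rose. At an unadjusted p under 0.05, and also by DESeq2, 15 of the 16 were lower and 0 higher. With RNY1-/- EVFx, 15 of 16 fell and 0 rose (30.7% of all genes fell). With RNY1+/+ ProteinFx 10 of 16 fell and 0 rose (29.3%). With RNY1-/- ProteinFx 11 of 17 of these genes fell and 0 rose (19%). Their summed level was 806 to 1382 CPM with PBS, 400.5 to 443 CPM with RNY1+/+ EVFx, 540.5 to 598 CPM with RNY1-/- EVFx, 664 to 763 CPM with RNY1+/+ ProteinFx and 543 to 887 CPM with RNY1-/- ProteinFx. Markers of other cells also differed between groups. The 4 eosinophil markers, with Epx at 0 in all libraries, summed to 7.17 to 13.5 CPM with PBS, 0.801 to 1.42 with RNY1+/+ EVFx, 1.31 to 2.46 with RNY1-/- EVFx, 14.7 to 21.1 with RNY1+/+ ProteinFx and 12.3 to 17.1 with RNY1-/- ProteinFx, so that neither EVFx group overlapped PBS or ProteinFx. The 5 fibroblast markers, all detected in each group, summed to 24.7 to 51.4 CPM with PBS, 22.5 to 39.5 with RNY1+/+ EVFx, 10.8 to 20.9 with RNY1-/- EVFx, 18.6 to 28.98 with RNY1+/+ ProteinFx and 11.6 to 28.95 with RNY1-/- ProteinFx, so that the EVFx groups did not overlap each other. The 8 neutrophil markers summed to 282 to 333 CPM with PBS, 143 to 209 with RNY1+/+ EVFx, 184 to 265 with RNY1-/- EVFx, 198 to 323 with RNY1+/+ ProteinFx and 239 to 354 with RNY1-/- ProteinFx, with Ly6g at 0 in all groups but RNY1+/+ ProteinFx. The 5 epithelial markers summed to 5.07 to 32.1 CPM over all libraries with Sftpc at 0 in each, and those of T, B and dendritic cells to 9.22 CPM or less. The part of division, of mitochondrial RNA and of other cells in the members' levels was not tested.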

How the data were processed

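Gene-level values of 20 bone marrow-derived macrophage libraries were analysed, 4 per treatment. The labels give no batch that separates RNY1-/- ProteinFx libraries 1 and 2 from libraries 3 and 4. PolyA RNA was read at its 3′ end with unique molecular identifiers by a service provider. Per the submitters' processing notes and the study's methods, reads were filtered with fastp 0.24.0, aligned with STAR 2.7.11 to GRCm39, collapsed by molecular identifier and counted by strand on exons and 3′ UTRs with featureCounts (Subread 2.1.1), reads of several loci being split into fractions. The authors deposited these expected counts without normalization, and CPM that the authors computed as the count over the library total. A fall in 1 gene's share therefore raises the CPM of others, and genes with near-identical copies carry shared reads.

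Columns were matched to treatments by the library names in the labels. Expected counts were rounded to whole numbers, genes passing filterByExpr with 3 CPM or more on average in the fitted libraries were kept, and 8 libraries of 2 groups (16 for the interaction) were tested with edgeR 4.0.16 (TMM, glmQLFit, glmQLFTest) in R 4.3.3. P-values were adjusted by Benjamini-Hochberg over all genes tested, and standard errors were derived from the log2 fold change and F (their quotient by the root of F), with 95% intervals at 1.96 SE. The step was tested on simulated data: for RNY1+/+ EVFx against PBS, 108 of 110 genes changed by a log2 fold change of 1 and 90 of 90 changed by 2 were recovered, with 4 false calls among 10770 genes. For the ProteinFx genotypes it was 90 of 95 and 105 of 105, with 3 false calls among 10482. The simulated libraries were independent, with the same dispersion for every gene and no outlying or split libraries. Fewer genes were changed than were called in the data, and all lay well above 3 CPM. The simulation therefore cannot give the recovery or false calls for members near 3 CPM or for groups with divergent libraries.

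The 40 symbols, the gene lists and the tests were chosen with earlier results of these data known. The genes named with each library's value were, per role, the most abundant and the most changed with RNY1+/+ EVFx and RNY1+/+ ProteinFx against PBS, all that passed the test and moved by over 1 on the log2 scale in any comparison, and the 3 lowest p of the interaction. The alternatives were DESeq2 1.42.0, total-count scaling, the filterByExpr filter alone, 1 fit over 20 libraries, the replicate number as a block, removal of GC and length trends (splines of 4 degrees of freedom over the 96.7% to 97.1% of genes with a GENCODE GRCm38 model), the left-out pairs of RNY1-/- ProteinFx libraries, and each library left out. Coordinates are of GRCm38, not of the build used for alignment. The study's own lists of changed genes were not used.

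Whether equal replicate numbers pair the libraries was checked by correlating deviations from group means. Each of the 4 same-numbered pairs correlated above 0.1 for RNY1-/- EVFx against PBS (0.14 to 0.39) and for RNY1-/- ProteinFx against RNY1-/- EVFx (0.22 to 0.42), and the other comparisons did not meet this. The labels state no pairing, which thus rests on these values. No pair of libraries in a group agreed within sampling noise, with a chi-square per gene of at least 2.30.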

Additional observations from a re-analysis of the deposited data

Results flagged for a closer look

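In a group of 4 libraries, 1 library stood clear of the other 3 by Dixon's criterion for the gap over the range in 6 of 60 groups of libraries examined over 12 genes, where chance gives about 1 in 20. Tma16 was at 56.6 CPM in RNY1+/+ ProteinFx library 4, where the next highest was 36.8 CPM, and at 11.1 CPM in PBS library 1, where the next lowest was 13.2 CPM. PBS library 4 had the lowest Polr1a, at 10.1 CPM against 13.95 CPM for its nearest neighbour, and the lowest Pprc1, at 5.52 CPM against 7.58 CPM. RNY1+/+ ProteinFx library 3 had the highest Gar1, at 16.1 CPM against 11.45 CPM, and the highest Pprc1, at 6.28 CPM against 4.21 CPM.

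The source genotype effect differed between the fractions for 9 of 38 members by the interaction test of edgeR, 7 positive and 2 negative, where 16.8% of all 10445 genes were positive and 16.2% negative. The log2 interaction, positive where RNY1-/- over RNY1+/+ was higher in ProteinFx than in EVFx, was 1.48 for Bysl, 1.30 for Tbl3, 0.88 for Pprc1, 0.87 for Pes1, 0.77 for Fbl, 0.76 for Gar1 and 0.72 for Tcof1. It was -0.89 for Tma16 and -0.67 for Pno1. With trends in GC and length removed, 6 were positive and 1 negative, 3 and 1 of them the same genes.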

How the results depend on the processing

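Of 53 gene values that passed the test for the 12 genes named with each library's value, 464 recomputed values kept direction and call 400 times, kept direction but not the call 61 times and changed sign 3 times, all 3 with GC and length trends removed: Gar1 for RNY1-/- ProteinFx against PBS (0.0283), Mybbp1a for RNY1-/- against RNY1+/+ EVFx (0.013) and Pno1 for RNY1+/+ ProteinFx against EVFx (-0.0244). Counts of members that moved by more than 1.5 times were as follows, and the cause was not tested. This rule compares counts and not which genes make them up. With trends removed, 9 members again fell with RNY1+/+ ProteinFx against PBS, but 4 of them were the same genes. With total-count scaling, 7 rose and 1 fell for RNY1+/+ EVFx against PBS, 5 and 11 for RNY1-/- EVFx, 3 and 15 for RNY1+/+ ProteinFx, 1 was higher for RNY1-/- against RNY1+/+ EVFx, 3 were lower for RNY1-/- ProteinFx against EVFx, and 12 interactions were positive. With trends removed, 1 fell with RNY1+/+ EVFx, 3 fell with RNY1-/- EVFx, 1 was higher for RNY1-/- against RNY1+/+ EVFx, 0 were higher for RNY1+/+ ProteinFx against EVFx and 1 interaction was negative. In the same order, the shares of all genes were 28.2%, 30.7%, 16.9%, 26.5% and 10.3%. DESeq2 lowered the fall with RNY1-/- EVFx from 5 to 3. In a fit over all 20 libraries 1 member was higher for RNY1-/- against RNY1+/+ EVFx, 1 for RNY1+/+ ProteinFx against EVFx, and 4 interactions were positive (19.4%, 27.8% and 9.36% of all genes). Without RNY1-/- ProteinFx libraries 1 and 2, 4 fell against PBS, 0 were higher against RNY1-/- EVFx, and 2 interactions were positive and 0 negative. Without libraries 3 and 4, 1 rose and 1 fell against PBS, 1 was higher and 5 lower against RNY1+/+ ProteinFx, and 7 interactions were negative.

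With the replicate number as a block, 5 members fell with RNY1+/+ ProteinFx against PBS, where 24.9% of all genes fell. With RNY1-/- ProteinFx 4 rose and 17 fell, but the shares of all genes also grew, from 16.7% and 19% to 28.8% and 32.1%. For RNY1+/+ ProteinFx against EVFx 1 was higher (31.2% of all genes). No other count of members moved by over 1.5 times, in the 2 comparisons whose numbers met the pairing check included (9 to 11 and 5 to 5, and 2 to 2 and 10 to 15). In the 6 pairwise comparisons that did not meet it, same-numbered libraries correlated between -0.386 and 0.656, and 0 to 4 of 8 libraries correlated best with their own number. In the 2 that met it, 3 of 8 (RNY1-/- EVFx against PBS) and 6 of 8 (RNY1-/- ProteinFx against EVFx) did so. The 3 of 8 lies within the range of the comparisons that did not meet the check.

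Leaving out each library in turn gave, for RNY1+/+ EVFx against PBS, 11 to 15 members higher and 0 lower; for RNY1-/- EVFx 8 to 13 and 2 to 7; for RNY1+/+ ProteinFx 4 to 8 and 4 to 11; for RNY1-/- ProteinFx 2 and 1 to 13; for RNY1-/- against RNY1+/+ EVFx 1 to 3 and 12 to 19, and ProteinFx 0 and 1; for ProteinFx against EVFx 1 to 3 and 25 to 30 (RNY1+/+) and 0 to 2 and 4 to 10 (RNY1-/-); and for the interaction 5 to 9 and 1 to 4. Except for PBS library 3, the shares of all genes were not counted in these fits. The ranges therefore cannot be told from changes over all genes. Depth limits most the members of lowest level, such as Nop16 with 5 counts in 1 library.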
